A study of Homo sapiens with 7 samples.

Results

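The clustered protocadherins are 60 genes on chromosome 5 whose symbols begin with PCDHA, PCDHB or PCDHG, and they were followed here in a myeloma line, in an HDAC6 knockout of it and in libraries labelled RY, whose marker genes go against their labelled identity. The members were chosen by chromosome and symbol alone, from a count table of 60666 Ensembl identifiers, of which 60437 had a symbol. They were 16 alpha, 20 beta and 24 gamma genes, 53 of them protein-coding and 7 pseudogenes or other non-coding genes, and they span 727 kb at chr5:140786136-141512981 of GRCh38. RNA was sequenced in bulk from 2 libraries of an HDAC6 knockout (KO), 3 libraries labelled RY and 2 libraries of unedited wild-type cells (WT). The RY label stands for a 2-residue change in the zinc finger of HDAC6 that removes its ubiquitin binding. Whether these libraries carry that change was not tested. HDAC6 is a mostly cytoplasmic deacetylase that also binds ubiquitin. Every library carries the name RPMI 8226, a human multiple myeloma line, a cancer of plasma cells, and the labels give KO and RY as CRISPR-Cas9 edits of it. It is not stated whether KO or RY is 1 clone, nor whether replicates are separate cultures. The p-values therefore rest on variation among these 7 libraries alone, part or all of which could be technical. A difference between lines that arose in cloning and an effect of the edit cannot be told apart, and in RY neither can be told apart from a difference in cell identity.

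Clustered protocadherins are cadherin-like adhesion proteins of the cell surface, best known for giving each neuron its own surface identity. Each alpha or gamma variable exon has its own promoter and is spliced to constant exons shared by its subcluster, while a beta gene is a lone coding exon. In mouse neurons most alternate isoforms are switched on promoter by promoter, through CTCF and cohesin looping to distant enhancers, and DNA methylation at the promoter goes with silence. The C-type isoforms (PCDHAC1, PCDHAC2, PCDHGC3, PCDHGC4 and PCDHGC5) follow separate rules in neurons. Plasma cells are not known for a protocadherin code.

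Library totals ran from 31368968 to 42813888 counted reads. HDAC6, the targeted gene, had 19.0 and 12.8 CPM (the usual depth-scaled read count, here also scaled by composition) in KO libraries, 90.4, 110 and 96.5 CPM in libraries labelled RY, and 57.2 and 77.3 CPM in WT libraries. It was 4.23-fold lower in KO than in WT (adjusted p = 0.000189, edgeR quasi-likelihood test), and its 1.47-fold difference between RY and WT did not reach the fold of 2 required for a call. The libraries labelled RY stood apart from the rest: their log2 CPM correlated at 0.682 to 0.753 with KO and WT libraries, against 0.946 to 0.958 between KO and WT. The 11 plasma cell markers summed to 15478 to 17383 CPM in KO, to 328 to 374 CPM in RY and to 16988 to 20053 CPM in WT, and TNFRSF17 (BCMA) had 0 reads in RY. The 11 myeloid markers summed to 1.10 to 4.53 CPM in KO, with 3 of them at 0, to 1133 to 1280 CPM in RY, with none at 0, and to 51.5 to 90.1 CPM in WT, with 2 at 0. The plasma cell markers were thus high in KO and WT and largely missing in RY. These values go against the label that RY is RPMI 8226, so the libraries labelled RY may not be that line, and RY is used here as a library label alone. For 210 genes that reached 20 CPM in RY but stayed below 1% of their RY level in KO, the WT libraries held a median of 4.04% and 7.09% of the RY level. The part of these differences in any protocadherin result was not tested. Among 13 neural markers, the summed level was 43.7 to 54.7 CPM in KO, 107 to 112 CPM in RY and 273 to 283 CPM in WT, and SNAP25 and STMN2 had 0 reads in every library. Of other lists, 7 B cell markers summed to 2.28 to 2.42 CPM in KO, 28.1 to 32.4 CPM in RY and 14.9 to 20 CPM in WT, 5 epithelial markers to 142 CPM in both KO libraries, 0 to 0.272 CPM in RY and 176 to 180 CPM in WT, and 6 fibroblast markers to 1.14 to 2.73 CPM in KO, 8.93 to 10.9 CPM in RY and 1.19 to 1.91 CPM in WT.

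The sequences just before the start sites of the isoforms that were detected in some line are shown because the promoter is the unit of isoform choice. They come from the RefSeq promoter table (GRCh38.p14, plus strand, 5′ to 3′), which had an entry for 47 of the 60 members, and each is a 45-base stretch around the first CGCTG of the window, with that word in capitals. The letters CGCT are the centre of the conserved element known from these promoters. The first set is the beta isoforms, detected in RY and not in KO or WT.
PCDHB2 (chr5:141094535-141094579): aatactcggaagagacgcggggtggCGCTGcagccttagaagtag
PCDHB8 (chr5:141177768-141177812): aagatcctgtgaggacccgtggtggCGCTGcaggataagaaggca
PCDHB16 (chr5:141182301-141182345): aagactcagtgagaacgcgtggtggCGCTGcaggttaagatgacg
PCDHB9 (chr5:141187065-141187109): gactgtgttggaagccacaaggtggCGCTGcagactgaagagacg
The next set is the gamma isoforms detected in KO and not in RY or WT.
PCDHGA1 (chr5:141330394-141330438): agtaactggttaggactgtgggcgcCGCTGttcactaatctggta
PCDHGB1 (chr5:141350016-141350060): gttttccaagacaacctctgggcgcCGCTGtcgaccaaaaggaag
PCDHGA4 (chr5:141354951-141354995): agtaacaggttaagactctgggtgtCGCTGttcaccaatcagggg
The gamma isoforms detected in both KO and RY follow, and then PCDHA1, the alpha gene with the most reads, which was below detection.
PCDHGB2 (chr5:141359912-141359956): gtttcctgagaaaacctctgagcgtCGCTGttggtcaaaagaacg
PCDHGA5 (chr5:141364098-141364142): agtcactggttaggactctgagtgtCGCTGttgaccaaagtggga
PCDHGA6 (chr5:141373826-141373870): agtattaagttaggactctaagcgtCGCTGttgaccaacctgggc
PCDHA1 (chr5:140786077-140786121): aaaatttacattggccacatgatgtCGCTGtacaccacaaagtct
All 4 beta stretches hold the word GGTGGCGCTG, which was in 12 of 14 beta genes and in 0.276% of all 35116 windows of 300 bases in the table, either strand counted. PCDHGA1 and PCDHGB1 hold GCGCCGCTGT, found in 9 of 20 gamma genes and 0.131% of windows. The most shared alpha word, TGATGTCGCT, was in 8 of 13 alpha genes and 0.0342% of windows, and it is in the PCDHA1 stretch. The 5 letters CGCTG alone were in 48.0% of windows, in 20 of 20 gamma, 12 of 14 beta and 9 of 13 alpha genes. The core lies 38 to 95 bases before the annotated start in 9 of these 11 stretches. The exceptions are PCDHGB2, where it lies 199 bases before, and PCDHB8, where it begins 4 bases into the transcript. These words were chosen from the same promoters, so the counts are descriptions and carry no test. All 10 detected genes held the core, as did most but not all of the undetected genes with an entry.

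The lines differed in which isoforms reached detection, and each used a small part of the cluster. An isoform was taken as detected where every library of a line had at least 0.5 CPM. By that rule 6 isoforms were detected in KO (PCDHGA1, PCDHGB1, PCDHGA4, PCDHGB2, PCDHGA5 and PCDHGA6), 7 in RY (PCDHB2, PCDHB8, PCDHB16, PCDHB9, PCDHGB2, PCDHGA5 and PCDHGA6) and 0 in WT. PCDHGB2, PCDHGA5 and PCDHGA6 were detected in both KO and RY. No alpha gene was detected in any line. At a level of 0.1 CPM the counts were 14 in KO, 14 in RY and 8 in WT, so the absence of detected isoforms in WT is a matter of level. All of these levels are low: the highest count of any member in any library was 125 reads. In bulk RNA, fewer expressing cells and less RNA per cell cannot be told apart.

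**Figure D1:**
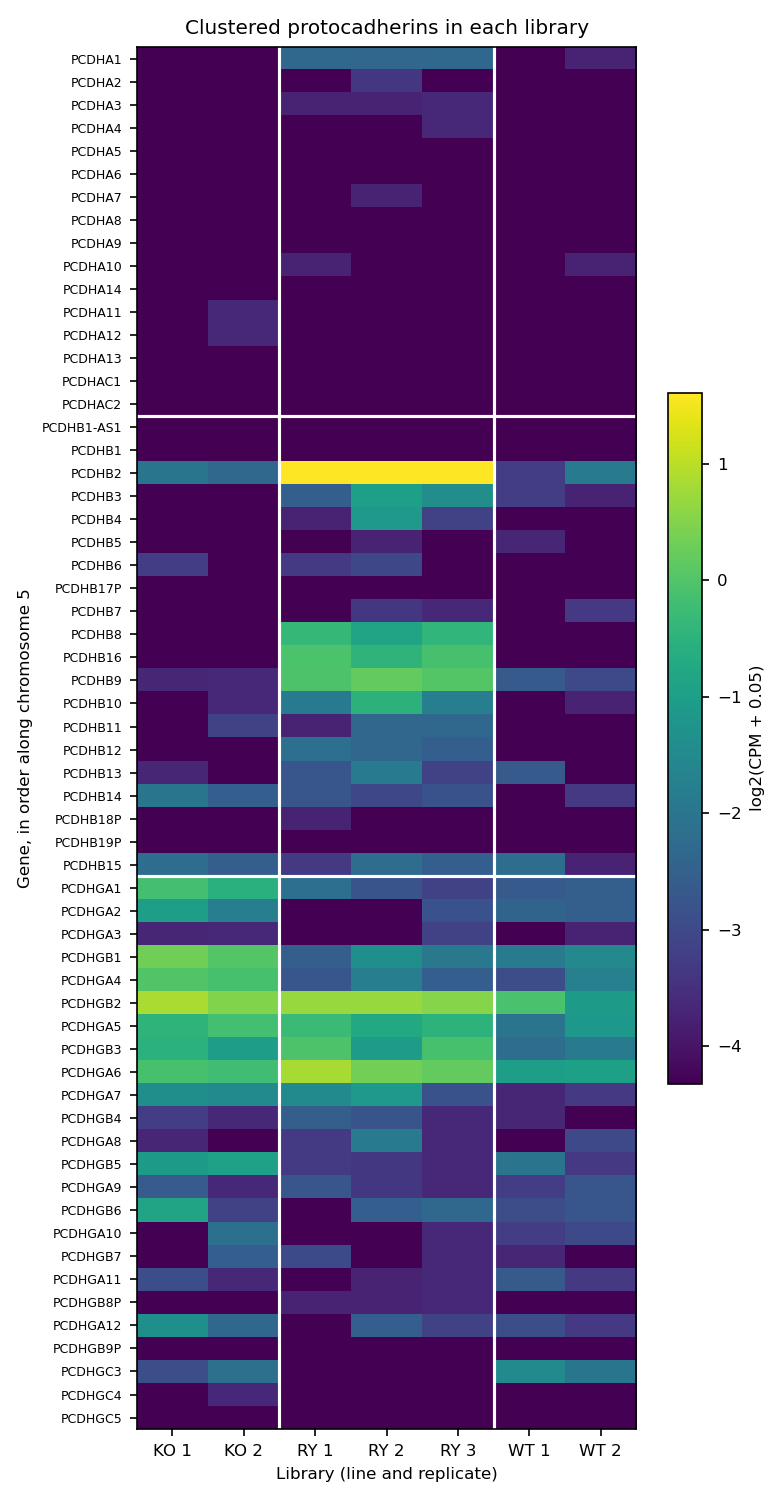
Level of each of the 60 clustered protocadherins in each library, as log2(CPM + 0.05), with genes in order along chromosome 5 and KO, RY and WT libraries from left to right. White lines part the lines and the alpha, beta and gamma subclusters. PCDHB2 and the stretch from PCDHB8 to PCDHB10 are brightest in RY, the start of the gamma array is brightest in KO and partly bright in RY, and the alpha genes are dark or nearly so in all 7 libraries.

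Summed over a subcluster, the gamma genes were highest in KO and the beta genes were highest in RY. Gamma RNA summed to 9.42 and 7.77 CPM in KO libraries, 6.15, 5.56 and 5.11 CPM in libraries labelled RY, and 3.22 and 3.08 CPM in WT libraries. The 3 lines did not overlap for this sum. Beta RNA summed to 0.675 and 0.510 CPM in KO, 6.43, 7.68 and 6.71 CPM in RY, and 0.527 and 0.472 CPM in WT. KO and WT overlapped in the beta sum, and every RY library lay far above both. Alpha RNA came to 0 and 2 reads in KO, 8, 10 and 7 reads in RY, and 0 and 2 reads in WT. These sums are descriptions, with no test.

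**Figure D2:**
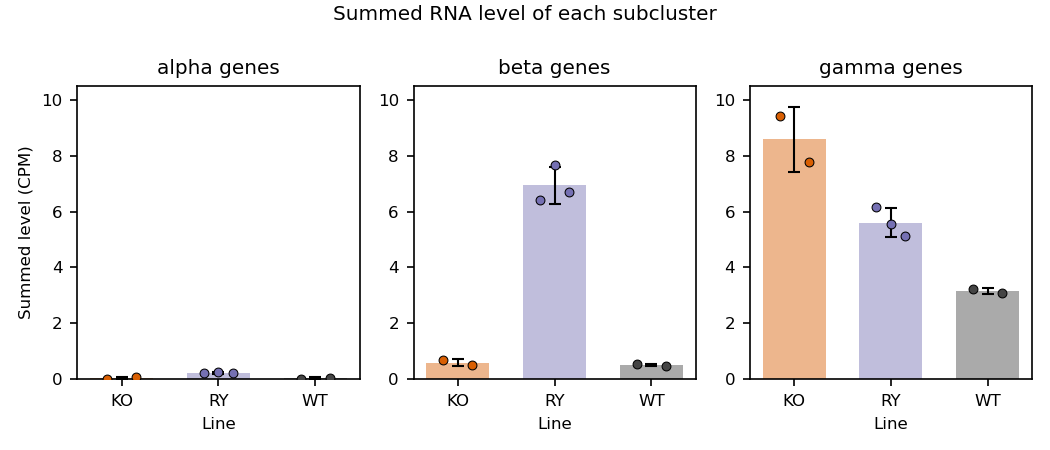
Summed level (CPM) of the alpha, beta and gamma genes by line, with a bar for the mean, a whisker for the SD and a point for each library. Gamma averages 8.60 CPM in KO, 5.61 in RY and 3.15 in WT, and beta averages 6.94 CPM in RY against 0.592 in KO and 0.50 in WT.

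The beta genes gave the highest folds of RY over the other lines. PCDHB2, the most abundant isoform of any line, had 0.197 and 0.15 CPM in KO libraries, 2.98, 3.01 and 2.96 CPM in libraries labelled RY, and 0.0555 and 0.224 CPM in WT libraries. It was 20.7-fold higher in RY than in WT (95% counting interval 11.4 to 41.8, log2 4.34 ± 0.38 (SE), adjusted p = 7.92e-06 by edgeR's quasi-likelihood test), and 17.1-fold higher in RY than in KO. KO and WT overlapped, at a 1.21-fold difference (adjusted p = 0.872, edgeR). PCDHB2 took 42.9% of the 798 beta reads in RY (39.2% to 46.3% in single libraries). All 5 beta genes that were tested (PCDHB2, PCDHB3, PCDHB8, PCDHB16 and PCDHB9) passed the filter on low counts through RY alone, so a difference between RY and the other lines was favoured by that choice and their p-values are descriptions.

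PCDHB9, PCDHB16 and PCDHB8 lie next to each other further along the beta array. PCDHB9 had 0.0281 and 0.0300 CPM in KO, 0.925, 1.08 and 0.968 CPM in RY, and 0.111 and 0.0746 CPM in WT. It was 10.8-fold higher in RY than in WT (adjusted p = 1.31e-05, edgeR) and 34.3-fold higher in RY than in KO (5.49e-06). PCDHB16 had 36, 28 and 29 reads in the libraries labelled RY (0.90, 0.674 and 0.877 CPM) and 0 reads in all KO and WT libraries. Against a floor of 3 reads over a group, that is at least 20.6-fold higher in RY than in WT. PCDHB8 likewise had 29, 21 and 23 reads (0.725, 0.506 and 0.696 CPM) in RY and 0 reads in KO and WT, at least 16.2-fold higher in RY than in WT. Both genes separated RY from the other lines without overlap, and both had 0 reads in KO and WT. Like PCDHB2, PCDHB9 and PCDHB3, both passed the filter through RY alone, so a difference was favoured by that choice. With 0 reads in KO and WT, PCDHB16 and PCDHB8 are given lower bounds on the fold, and no p-value is printed for them. They are still counted among the edgeR calls below.

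The remaining beta genes with reads were lower and less even. PCDHB3 had 0 reads in both KO libraries, 5, 19 and 11 reads in RY, and 2 and 1 reads in WT, and it was 7.76-fold higher in RY than in WT (counting interval 2.45 to 39.5, adjusted p = 0.0108, edgeR). Without WT replicate 2 that call is lost, and without RY replicate 2 or 3 the gene does not pass the filter. PCDHB10 had 0 and 1 reads in KO, 9, 27 and 8 in RY, and 0 and 1 in WT, and it did not pass the filter on low counts. PCDHB4 was uneven within RY, with 1, 17 and 2 reads, and had 0 reads in every KO and WT library. PCDHB12 had 7, 6 and 4 reads in RY and 0 elsewhere, and PCDHB11 had 0 and 2 reads in KO, 1, 6 and 5 in RY, and 0 and 0 in WT. PCDHB13, PCDHB14 and PCDHB15 had at most 9 reads in a library, with reads in all 3 lines. Of these, PCDHB14 and PCDHB15 were not highest in RY. PCDHB14 had 7 and 4 reads in KO, 4, 3 and 3 in RY, and 0 and 2 in WT. PCDHB15 had 6 and 4 reads in KO, 2, 7 and 4 in RY, and 6 and 1 in WT. PCDHB5, PCDHB6, PCDHB7 and the pseudogene PCDHB18P had at most 3 reads. PCDHB1, its antisense RNA PCDHB1-AS1 and the pseudogenes PCDHB17P and PCDHB19P had 0 reads in all 7 libraries. Beta genes resemble each other closely, and the handling of multiply mapped reads is not given in the sources used here. The split between neighbours is uncertain for that reason.

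Some gamma isoforms were highest in KO and overlapped between RY and WT, and others were detected in both KO and RY. PCDHGA1, the first gamma gene, had 0.844 and 0.630 CPM in KO libraries, 0.175, 0.0963 and 0.0605 CPM in libraries labelled RY, and 0.111 and 0.124 CPM in WT libraries. Both KO libraries lay above all others, and RY and WT overlapped. It was 6.27-fold higher in KO than in WT (counting interval 3.06 to 14.5, log2 2.61 ± 0.48 (SE), adjusted p = 0.00539, edgeR), and 6.53-fold lower in RY than in KO (adjusted p = 0.000387). PCDHGB1 had 1.21 and 0.960 CPM in KO, 0.125, 0.337 and 0.212 CPM in RY, and 0.222 and 0.298 CPM in WT, 4.15-fold higher in KO than in WT (adjusted p = 0.0108, edgeR). PCDHGA4 had 0.956 and 0.870 CPM in KO, 0.10, 0.241 and 0.121 CPM in RY, and 0.0833 and 0.249 CPM in WT, 5.37-fold higher in KO than in WT (adjusted p = 0.00926, edgeR). All 3 separate KO from the other lines. PCDHGA1 and PCDHGA4, like PCDHGB5, passed the filter through KO alone, so their KO p-values are descriptions too. Without KO replicate 1, PCDHGA1 alone of the 6 called isoforms stays called, and PCDHGB1 and PCDHGA4 lose the call.

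PCDHGB5 showed the same layout at a lower level. It had 15 and 16 reads in KO, 2, 2 and 1 in RY, and 7 and 2 in WT, and was 3.81-fold higher in KO than in WT (adjusted p = 0.0204, edgeR) and 10.3-fold lower in RY than in KO (adjusted p = 0.000209). Its KO against WT call is lost in 9 of 13 alternatives, among them the fits without WT replicate 2 and without either KO library. PCDHGA2 had 16 and 8 reads in KO, 0, 0 and 3 in RY, and 5 and 5 in WT, and did not pass the filter.

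PCDHGB2 had the highest mean CPM of the gamma isoforms in every line. In RY replicate 1 and WT replicate 2, however, PCDHGB2 lay below PCDHGA6. It had 1.77 and 1.35 CPM in KO, 1.58, 1.57 and 1.39 CPM in RY, and 0.888 and 0.422 CPM in WT, where the replicates differed by more than they did in KO or RY. It was 2.44-fold higher in KO than in WT (adjusted p = 0.0484, edgeR) and 2.36-fold higher in RY than in WT (adjusted p = 0.0097), and RY and KO differed by 0.969-fold (counting interval 0.757 to 1.24). The KO call stands close to the threshold and is lost in 9 of 13 alternatives, among them the fits without WT replicate 2 and without either KO library. Leaving out WT replicate 2 also ends the RY call. PCDHGA6 had 0.872 and 0.810 CPM in KO, 1.75, 1.23 and 1.09 CPM in RY, and 0.444 and 0.472 CPM in WT. It was 2.99-fold higher in RY than in WT (adjusted p = 0.00271, edgeR), while its 1.83-fold difference between KO and WT was not called (adjusted p = 0.217). PCDHGA5 had 0.675 and 0.840 CPM in KO, 0.775, 0.554 and 0.665 CPM in RY, and 0.194 and 0.398 CPM in WT. It was 2.20-fold higher in RY than in WT (adjusted p = 0.0326, edgeR), a call lost in 6 of 12 alternatives, among them the fits without WT replicate 1, RY replicate 1 or RY replicate 3, and 2.50-fold apart in KO and WT with an adjusted p of 0.0804.

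PCDHGB3 had 0.647 and 0.45 CPM in KO, 0.925, 0.433 and 0.877 CPM in RY, and 0.167 and 0.224 CPM in WT. It missed detection in KO and RY by a library each, and was called higher in RY than in WT (3.73-fold, adjusted p = 0.00872, edgeR). PCDHGA7 had 12 and 10 reads in KO, 12, 17 and 3 in RY, and 1 and 2 in WT. It was 8.12-fold higher in KO than in WT (counting interval 2.44 to 42.4, adjusted p = 0.0388, edgeR) and 7.10-fold higher in RY than in WT (counting interval 2.22 to 36.2, adjusted p = 0.0103), with 3 reads over the WT libraries. The KO call is lost in 8 of 13 alternatives, among them the fits without either KO or either WT library. The RY call is lost without either WT library. Neither PCDHGB3 nor PCDHGA7 reached the filter's level in a WT library. A level above WT was favoured by that choice, and their p-values against WT are descriptions. In share of gamma reads, PCDHGB2 took 18.2% of 594 in KO (17.4% to 18.8% in single libraries), 26.9% of 646 in RY (25.6% to 28.1%) and 20.4% of 240 in WT, where the libraries stood at 13.7% and 27.6% and overlapped both KO and RY. PCDHGA6 took 9.76% in KO (9.25% to 10.4%), 24.3% in RY (21.3% to 28.5%) and 14.6% in WT (13.8% to 15.3%).

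**Figure D3:**
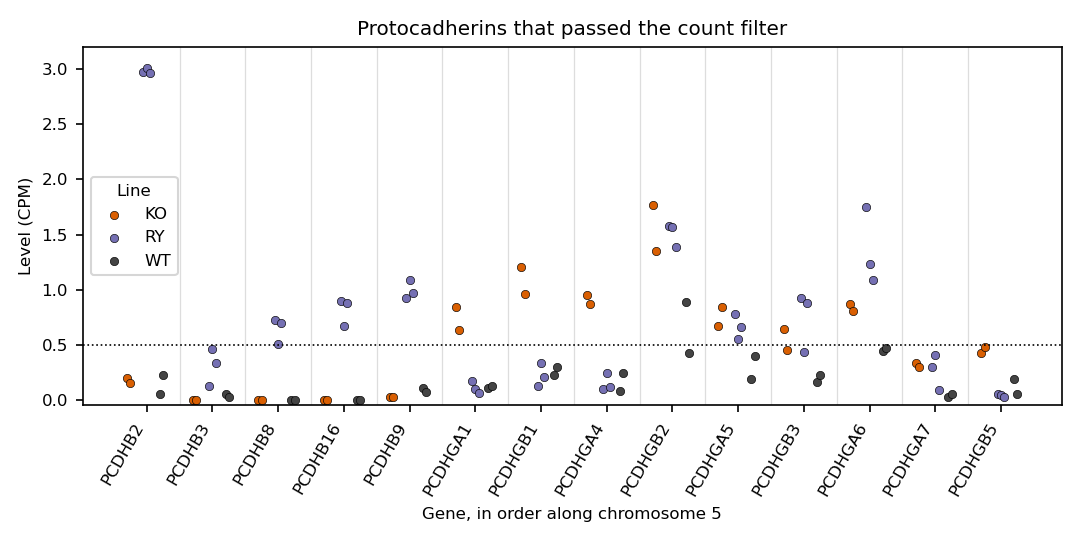
Level (CPM) of the 14 clustered protocadherins that passed the count filter, with a point for each library of KO, RY and WT and a dotted line at the detection level of 0.5 CPM. PCDHB2, PCDHB8, PCDHB16 and PCDHB9 stand out in RY, PCDHGA1, PCDHGB1 and PCDHGA4 stand out in KO, and PCDHGB2, PCDHGA5 and PCDHGA6 are above the line in both.

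None of the remaining gamma genes was detected in any line. PCDHGB6 was uneven in KO, with 18 and 2 reads (0.506 and 0.0600 CPM), against 0, 5 and 5 in RY and 3 and 4 in WT. PCDHGA12 had 12 and 5 reads in KO, 0, 5 and 2 in RY, and 3 and 2 in WT. PCDHGC3, a C-type isoform that is also used outside neurons, had its highest counts in WT, with 3 and 6 reads in KO, 0, 0 and 0 in RY, and 11 and 8 in WT. It took 7.92% of the gamma reads in WT and did not pass the filter. KO and WT differed by 0.524-fold, with a counting interval of 0.209 to 1.22 that includes no difference. PCDHGA3, PCDHGB4, PCDHGA8, PCDHGA9, PCDHGA10, PCDHGB7, PCDHGA11, PCDHGC4 and the pseudogene PCDHGB8P had at most 9 reads in a library. PCDHGC5 and the pseudogene PCDHGB9P had 0 reads in all 7.

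The alpha genes carried the fewest reads. PCDHA1 had 0 and 0 reads in KO, 6, 6 and 5 in RY, and 0 and 1 in WT. PCDHA2, PCDHA3, PCDHA4, PCDHA7, PCDHA10, PCDHA11 and PCDHA12 had at most 2 reads in a library, and PCDHA5, PCDHA6, PCDHA8, PCDHA9, PCDHA13, PCDHA14, PCDHAC1 and PCDHAC2 had 0 in all 7. A total of 0 reads over a line allows up to 0.0435 CPM in KO, 0.0262 CPM in RY and 0.0393 CPM in WT (3 reads over the group). Of the 60 members, 14 had 0 reads in every library, 36 had reads and were never detected, and 10 were detected in some line. In KO 29 members had 0 reads, in RY 18 and in WT 29. The RY count pools 3 libraries and the others 2 each, so these counts are not at equal depth.

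Levels of different genes were compared per length. On the RPKM scale (reads per kilobase of exonic sequence that no other gene on the strand shares, scaled as CPM), levels in KO were led by PCDHGB2 at 0.603 ± 0.115, PCDHGB1 at 0.418 ± 0.0679 and PCDHGA4 at 0.337 ± 0.0224 (SD, n = 2). In RY they were led by PCDHB2 at 0.723 ± 0.00580 and PCDHGB2 at 0.584 ± 0.0400, followed by PCDHGB3 at 0.289 ± 0.105, PCDHB8 at 0.255 ± 0.0473, PCDHB9 at 0.243 ± 0.0201 and PCDHGA6 at 0.237 ± 0.0609 (SD, n = 3), the last 4 of which lie within each other's spread. In WT they were led by PCDHGB2 at 0.253 ± 0.127, then PCDHGB1 at 0.10 ± 0.0208 and PCDHGA5 at 0.0833 ± 0.0405 (SD, n = 2), and PCDHGB1 and PCDHGA5 lie within each other's spread. The gamma coding genes share at least 2181 exonic bases with other genes and the alpha coding genes at least 2866. Reads in those constant exons cannot be given to an isoform, and their treatment in the counting is not given in the sources used here. Over all exonic bases, shared ones included, PCDHB2 again led in RY at 0.723, followed by PCDHGB2 at 0.317. PCDHB8 then stood at 0.234, PCDHB9 at 0.225, PCDHGA6 at 0.171, PCDHB16 at 0.163 and PCDHGB3 at 0.157. The order of beta against gamma genes in RY therefore depends on which bases are counted. The 12 annotated antisense genes over member exons all had 0 reads.

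The test across all genes was run on 18281 genes, of which 14 were members, 5 beta and 9 gamma. The other 46 members did not pass the filter. Of the 14, the 5 beta genes passed through RY alone and 3 gamma genes (PCDHGA1, PCDHGA4 and PCDHGB5) through KO alone. For such members a difference between lines was favoured by the filter. Of the other 6, PCDHGB3 and PCDHGA7 reached the filter's level in 0 WT libraries, and PCDHGB1 and PCDHGA5 in 1. For these a level above WT was favoured as well. Only PCDHGB2 and PCDHGA6 reached that level in both WT libraries. The counts that follow therefore describe the tested members and are not a share of the family. In KO against WT, 6 of the 14 were called higher and 0 lower (PCDHGA1, PCDHGB1, PCDHGA4, PCDHGB2, PCDHGA7 and PCDHGB5), all gamma, where 3.68% of all genes tested were called higher, 7.21% lower and 10.9% in either direction. At an unadjusted p under 0.05 edgeR had 8 members higher and 0 lower, and DESeq2 called 4 higher and 0 lower. The 5 beta genes carried few or no reads in KO and WT, with 0 in both for PCDHB8 and PCDHB16, so nothing is read from their lack of a call. The count depends on 1 library and on the fit: it is 1 without KO replicate 1, 3 without KO replicate 2 or without WT replicate 2, and 5 without WT replicate 1. With KO and WT libraries alone in the fit, leaving out the libraries labelled RY, 4 were called (PCDHGA1, PCDHGB1, PCDHGA4 and PCDHGA7).

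In RY against WT, 10 of the 14 were called higher and 0 lower, all 5 beta genes and PCDHGB2, PCDHGA5, PCDHGB3, PCDHGA6 and PCDHGA7. The background there is high, with 23.9% of all genes tested called higher, 25.4% lower and 49.3% in either direction. The filter favoured a level above WT for most of the 10, and PCDHGC3, with 0 reads in RY, did not pass it. The 0 lower is therefore a description. At an unadjusted p under 0.05 edgeR had 0 members lower, and DESeq2 called 9 higher and 0 lower. In RY against KO, 5 were called higher, again all 5 beta genes, and 4 lower (PCDHGA1, PCDHGB1, PCDHGA4 and PCDHGB5), where 24.2% of all genes were called higher, 25.9% lower and 50.0% in either direction. With no minimum fold, 10 members were higher and 0 lower in RY against WT, where 73.0% of all genes were called, and 5 higher and 4 lower in RY against KO, where 73.9% were. The comparisons with WT share their WT libraries, so the values are best read side by side. The log2 fold change of PCDHGA1 was 2.61 in KO and -0.06 in RY. For PCDHGA4 it was 2.40 in KO and -0.11 in RY, for PCDHGB2 1.28 in KO and 1.23 in RY, and for PCDHB2 0.27 in KO and 4.34 in RY. Scaling by library size alone moved the median log2 fold change of all genes in RY against WT to 0.16 from -0.03 and in RY against KO to 0.11 from -0.03, and every member call in the 3 comparisons was the same under it.

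**Figure D4:**
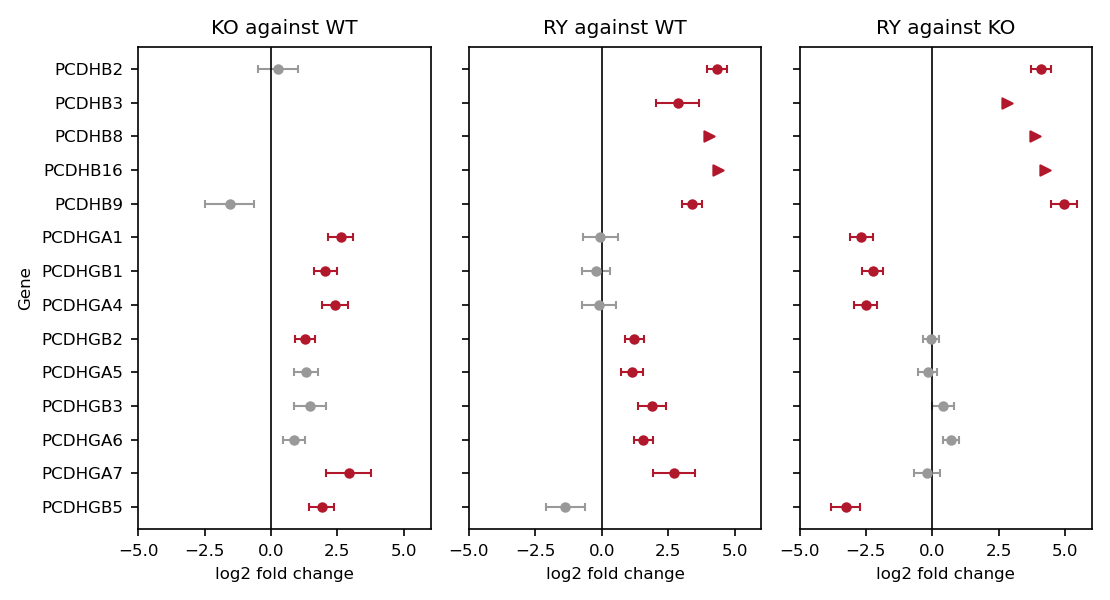
log2 fold change of the 14 tested members in KO against WT, RY against WT and RY against KO, with SE whiskers. Red marks called genes, grey genes not called, and right-pointing triangles lower bounds against a group with 0 reads, and a gene with no fold above the floor has no point. Beta genes lie to the right in both RY panels, and PCDHGA1, PCDHGB1, PCDHGA4 and PCDHGB5 lie to the right in KO against WT and to the left in RY against KO.

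The authors' deposited table of KO against WT lists 6 members, all higher in KO. It shares PCDHGA1, PCDHGB1, PCDHGA4, PCDHGB2 and PCDHGA7 with the calls above and has PCDHGA5 in place of PCDHGB5. In the authors' deposited table of RY against WT there are 15 members, 14 higher and PCDHGC3 lower (log2 fold change -6.28, adjusted p = 0.000224 in that table). The members of the authors' deposited table that did not pass the filter used here are PCDHB10, PCDHB12, PCDHB11, PCDHA1 and PCDHGC3. Without the filter, PCDHB10, PCDHB12 and PCDHA1 were called higher and PCDHGC3 lower in RY against WT, and PCDHB11 was not called.

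Genes around the cluster gave a local comparison. Of 30 other protein-coding genes within 500 kb of the cluster or inside it, 27 were tested. In KO against WT 0 were called higher by edgeR or DESeq2, with 3 higher and 5 lower at an unadjusted p under 0.05 in edgeR. Called lower were 2, ARAP3 (0.117 CPM in KO, 2.96 CPM in WT) and HBEGF (0.129 CPM in KO, 1.30 CPM in WT). Of all genes tested in KO against WT, 3.68% were called higher and 7.21% lower, so these counts are near that share. The median log2 fold change of the neighbours was 0.01, against -0.01 over all genes. ARAP3, a GTPase-activating protein, and HBEGF, a growth factor, averaged 55.8 CPM and 8.44 CPM in RY, and the part of RY-like RNA in their WT levels was not tested. In RY against WT 4 were called higher, among them ARAP3, HBEGF and RELL2, and 2 lower, among them PCDH1, with a list median of -0.11. In RY against KO 4 were called higher and 1 lower, led by ARAP3, PCDH1, HBEGF and RELL2, with a list median of -0.06. Over all genes 49.3% were called in RY against WT and 50.0% in RY against KO. TAF7, a basal transcription factor subunit whose gene lies between the beta and gamma arrays, averaged 178 ± 4.47 CPM in KO, 119 ± 8.90 CPM in RY and 152 ± 19.7 CPM in WT, and it was not called in any comparison. TAF7 was expressed far above any member, and its fold stayed under 2.

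**Figure D5:**
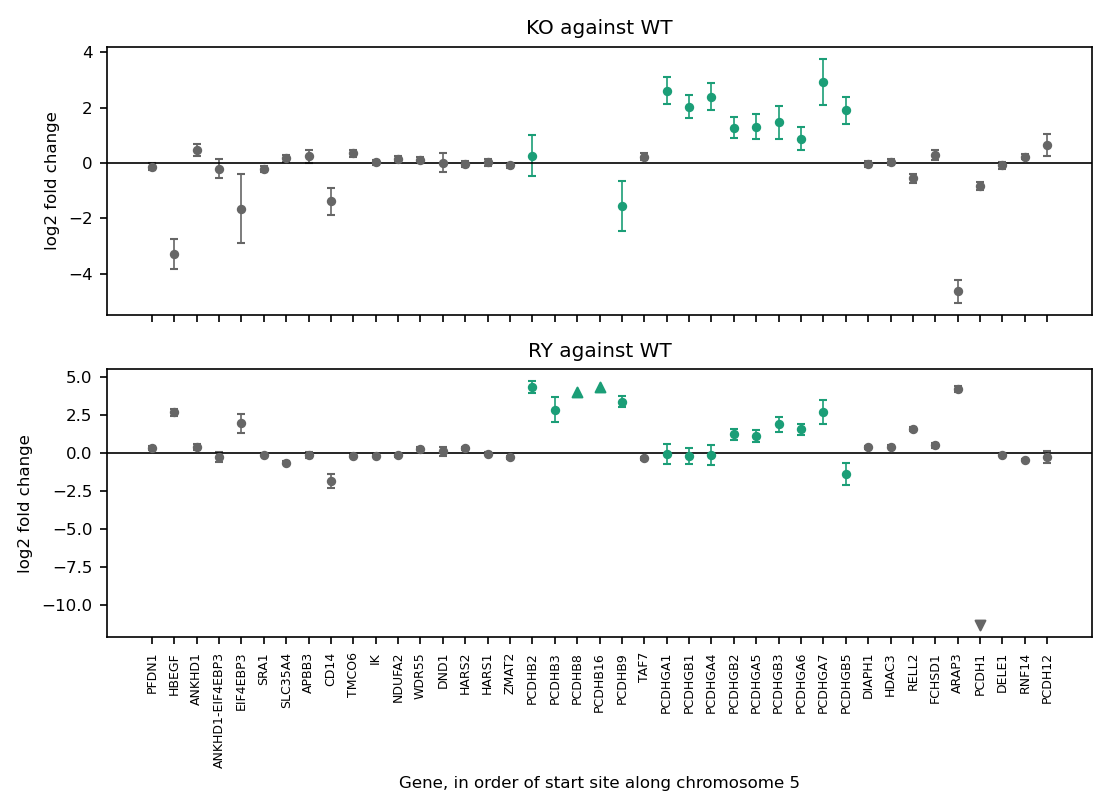
log2 fold change (point, with SE whisker) of tested genes in order of start site along chromosome 5, clustered protocadherins in green and neighbours in grey, for KO against WT above and RY against WT below. Triangles are bounds against a group with 0 reads. Most neighbours lie near 0, while ARAP3 and HBEGF are low in KO and high in RY and PCDH1 is at 0 reads in RY.

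Among 39 regulators of the cluster, 38 were tested. KO against WT had 1 called higher and 1 lower, where 3.68% of all genes tested were higher and 7.21% lower. In KO against WT, TET2, which oxidises methylated cytosine, was higher (16.1 ± 1.23 CPM in KO, 7.37 ± 1.20 CPM in WT, adjusted p = 0.000942, edgeR). DNMT3B, the methyltransferase that marks these promoters in mouse, was lower: it had 2.28 and 3.09 CPM in KO, against 5.91 and 5.89 CPM in WT (2.21-fold, adjusted p = 0.00267, edgeR). Leaving out KO replicate 1 takes the DNMT3B fold under 2 and leaving out WT replicate 1 does the same for TET2. In RY, DNMT3B had 39.6, 37.0 and 43.8 CPM, 6.75-fold higher than in WT (adjusted p = 3.1e-07), and the part of RY-like RNA in its WT level, and so in the lower KO call, was not tested. In RY against WT 5 of the 38 regulators were higher and 1 lower, where 23.9% of all genes were higher and 25.4% lower, led by DNMT3B, the REST corepressor RCOR1 (127 CPM in RY, 43.3 CPM in WT), the cohesin regulator PDS5A (524 CPM in RY, 176 CPM in WT) and the histone methyltransferase SETDB1, which was lower (24.3 CPM in RY, 64.8 CPM in WT). In RY against KO 7 were higher and 2 lower, where 24.2% of all genes were higher and 25.9% lower, led by the same 4 genes. The median log2 fold change of the list was 0.02 in KO against WT, where that of all genes was -0.01. It was 0.31 in RY against WT and 0.29 in RY against KO, where that of all genes was -0.03 in each.

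CTCF, SMCHD1 and REST did not reach a fold of 2 in any comparison. CTCF, the looping factor, averaged 144 ± 12.2 CPM in KO, 90.4 ± 6.14 CPM in RY and 131 ± 29.7 CPM in WT. SMCHD1, which keeps clustered protocadherins silent in mouse cells, averaged 220 ± 9.66 CPM in KO, 155 ± 3.29 CPM in RY and 230 ± 9.33 CPM in WT. REST, the repressor of neuronal genes, averaged 48.9 ± 1.92 CPM in KO, 58.6 ± 3.34 CPM in RY and 38.3 ± 3.68 CPM in WT (SD, n = 2 for KO and WT and 3 for RY). In RY against WT the adjusted p was 0.00649 for CTCF and 0.00018 for SMCHD1 (edgeR), with folds of 0.694 and 0.674, and 0.000502 for REST with a fold of 1.53.

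Of 28 cytoplasmic partners, 27 were tested. KO against WT had 1 called higher and 3 lower, where 3.68% of all genes tested were higher and 7.21% lower. In KO against WT, PRKCB, a protein kinase C, was lower (1.64 CPM in KO, 16.2 CPM in WT), as were its substrate MARCKS (7.51 CPM in KO, 63.6 CPM in WT) and the WAVE complex subunit WASF1 (1.93 CPM in KO, 8.17 CPM in WT), while the receptor kinase RET was higher (0.540 CPM in KO, 0.115 CPM in WT, adjusted p = 0.0309, edgeR), a call lost in 8 of 13 alternatives, among them the fits without WT replicate 1 and without either KO library. In RY, PRKCB averaged 221 CPM, MARCKS 162 CPM and WASF1 103 CPM. The WT levels of PRKCB and WASF1 are thus a small share of RY's, like the 210 genes above, and the part of that share in the lower KO calls was not tested. In RY against WT 7 of the 27 partners were higher and 5 lower, near the 49.3% of all genes called, led by WASF1, PRKCB, the WAVE partner ABI2 (91.4 CPM in RY, 19.2 CPM in WT) and the kinase FYN (141 CPM in RY, 12.1 CPM in WT). In RY against KO 8 were higher and 7 lower, near the 50.0% of all genes called, led by WASF1, PRKCB, ABI2 and MARCKS. The median log2 fold change was -0.06 in KO against WT, 0.01 in RY against WT and -0.05 in RY against KO.

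The non-clustered protocadherins lie outside the cluster and showed their own patterns. Of 16 genes, 6 were tested. KO against WT had 1 called higher and 1 lower, where 10.9% of all genes tested were called in either direction. RY against WT had 1 called higher and 2 lower, where 49.3% of all genes were called. PCDH9 was higher in KO, at 1.29 ± 0.125 CPM against 0.0387 ± 0.0155 CPM in WT (adjusted p = 7.38e-05, edgeR), and CDHR3 was lower in KO (0.0581 CPM in KO, 1.23 CPM in WT). PCDH1 had 0 reads in all libraries labelled RY, against 38.5 ± 6.17 CPM in KO and 68.4 ± 5.15 CPM in WT, at least 2620-fold lower in RY than in WT. It lies within 500 kb of the clustered genes on chromosome 5, with other genes between, and is the only tested neighbour with 0 reads in RY. CDHR2 was higher in RY than in WT (1.24 CPM in RY, 0.152 CPM in WT) and PCDH18 lower (0.0589 CPM in RY, 0.231 CPM in WT), a call lost in 6 of 11 alternatives, among them the fits without WT replicate 2 and without RY replicate 1 or 3. In RY against KO 2 of the 6 were higher and 3 lower, where 50.0% of all genes were called, led by PCDH1, PCDH9 and PCDH18, which were lower, and CDHR3, which was higher (1.99 CPM in RY, 0.0581 CPM in KO). The list's median log2 fold change was 0.20 in KO against WT, 0.21 in RY against WT and -2.07 in RY against KO.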

How the data were processed

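RNA-seq libraries of KO (2), RY (3) and WT (2) were stranded TruSeq, per the labels' protocols. Per the submitters' processing notes, STAR 2.7.4, HTSeq 0.9.1, FastQC and edgeR 1.34.1 were used on build GRCh38, with no roles given; annotation release, strand setting and multimapping rule are not given in the sources used here. The deposited raw counts per Ensembl gene entered every test. A normalized score deposited by the authors was only compared with the counts. The authors' deposited tables give log2 fold changes, scores, p-values and adjusted p-values.

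The members and gene lists were chosen with earlier results of these data known. Gene positions and exons are from GENCODE 29, and promoter sequences with their start sites are from the RefSeq promoter table. Counts were tested with edgeR 4.0.16 in R 4.3.3 (quasi-likelihood, all 7 libraries in 1 fit with a group term, TMM factors 0.932 to 1.09, filterByExpr minimum count 10). Calls need a Benjamini-Hochberg adjusted p under 0.05 over 18281 genes and a fold of 2. The test was tried on simulated counts, with changes placed only in genes averaging above 1 CPM. It recovered 72.4% of 2-fold changes in KO against WT and 71.7% in RY against WT. Most tested members average below 1 CPM, so this does not gauge the test at their level. CPM is counts over TMM-scaled library size, and folds are ratios of pooled reads with 95% intervals that cover counting error only. Detection means 0.5 CPM in every library of a line. Named were HDAC6, every detected member, up to 4 called genes per list and comparison by adjusted p, and REST, CTCF, SMCHD1, DNMT3B and TAF7. The alternatives were RLE factors, library size alone, no filter, DESeq2 1.42.0, 2 groups alone, a replicate block, no minimum fold, each library left out, other detection levels and all exonic bases. Added after seeing the data were a crossed block and an older quasi-likelihood estimate.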

Additional observations from a re-analysis of the deposited data

How the results depend on the processing

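Counts of members called in KO against WT were the least stable: 6 in the fit reported, 3 without the filter, 3 under the older quasi-likelihood estimate, 4 under DESeq2, and 1 to 5 when a library was left out. PCDHGA1 and PCDHGA4 lost the call in 1 of 13 alternatives each, PCDHGB1 in 2, PCDHGA7 in 8, and PCDHGB2 and PCDHGB5 in 9 each. RY against WT stayed at 8 to 14 calls, and RY against KO at 8 to 14, the highest without the filter. Without it, 13 members were higher and 1, PCDHGC3, lower in RY against WT. RY against KO then had 8 higher and 6 lower. With the replicate number as a block 4 members were called in KO against WT, 9 in RY against WT and 9 in RY against KO. With only KO and WT libraries in the fit the block gave 1, and with crossed KO numbers 8. The deviations of same-numbered KO and WT libraries correlated at -0.30. The samples share only a number. Without a minimum fold, RY against WT gave 26 regulators, 22 partners and 16 neighbours, where 73.0% of all genes were called, and RY against KO gave 26 regulators, 25 partners and 16 neighbours, where 73.9% were. Library size alone gave 10 regulators in RY against WT, and the summed gamma level in WT as 2.95 CPM. Regulators in KO against WT ran from 1 to 2 with a library left out. Detected isoforms numbered 14 in KO, 14 in RY and 8 in WT at 0.1 CPM, and 1 in KO, 3 in RY and 0 in WT at 1 CPM. Leaving out a library gave 6 to 8 in KO, 7 to 8 in RY and 0 to 1 in WT, with PCDHGB2 detected without WT replicate 2. No result reversed in the alternatives run. The cause of these shifts was not tested. Depth limits all of this, as no member passed 125 reads in a library.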

Other observations

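The authors' deposited table gives an average log2 CPM for each listed gene, and for several members it lies above every one of the 7 libraries. For PCDHGB1 it corresponds to 2.37 CPM, where the highest of the 7 libraries holds 1.21 in the authors' normalized units, and for PCDHGC3 to 1.58 against 0.305. In the table of KO against WT the average exceeded all 7 libraries by more than 0.2 for 308 of 2336 genes (13.2%), and in that of RY against WT for 1172 of 9877 (11.9%).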
